A study of Mus musculus with 8 samples.

Results

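The endothelial genes described here are 10 genes that mark or equip the cells lining blood vessels: the receptor genes Kdr, Flt1, Tek and Tie1, the junction genes Pecam1 and Cdh5, the surface genes Emcn and Plvap, and Nos3 and Vwf, which serve vessel tone and clotting. They were chosen by name, as the array probes whose RefSeq accession belongs to 1 of these genes, with the brightest probe taken per gene. All 10 had a probe, 13 probes in all, and all 10 were among the 20580 genes tested. Messenger RNA was measured on 8 single-colour Agilent arrays, 2 for each of 4 groups of left kidneys from male mice aged 16 weeks. KD IRI kidneys carried a knockdown of Keap1 and were taken at day 1 after ischemia-reperfusion injury, for which the renal vein and artery had been clamped for 45 min and then released. WT IRI kidneys were wild type with the same injury, KD Normal kidneys carried the knockdown without injury, and WT Normal kidneys were wild type without injury. How the knockdown was made is not given in the sources used here, and the labels do not tie the arrays to separate animals. P-values below therefore cover only the spread among these arrays, which may be technical.

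Endothelial cells receive growth signals through VEGF receptors and stabilising signals through the angiopoietin receptors, are held together by cadherin and immunoglobulin-type adhesion molecules, and release nitric oxide and von Willebrand factor. In the kidney they line the glomerular and peritubular capillaries, the vasa recta and the larger vessels. KEAP1 is the adaptor that marks the stress-response factor NRF2 for degradation. The comparisons ask how these genes stood in the injured kidney, and in the kidney with less Keap1.

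Levels are log2 signals minus the log2 of the array's 75th percentile, so that 0 is that percentile and a difference of 1 is a doubling. Levels of different genes come from different probes and are not compared. Between 62.1% and 67.8% of the spots that were not controls were well above background on an array, and each of the 10 endothelial genes was well above background on all 8 arrays. Keap1, the targeted gene, stood at 1.33 and 1.04 in KD IRI, 2.66 and 2.50 in WT IRI, 1.502 and 1.40 in KD Normal and 2.75 and 2.66 in WT Normal. The replicate 1 arrays of all groups lay on 1 slide and the replicate 2 arrays on the other, so values are also given within slides. Changes are log2 differences with limma's standard error (SE), n = 2 arrays in each group. All p-values were adjusted across every gene tested, and a gene passed where its adjusted p was under 0.05.

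Before the values, the promoter windows of Kdr, Flt1 and Tie1 are shown, because Kdr and Tie1 changed in opposite directions after injury in the knockdown and Flt1 is the other VEGF receptor. RefSeq windows (GRCm38.p6) were at hand for 5 of the 10 genes. Each sequence is the 250 bases before an annotated start, and capitals mark GGAA on either strand, the core bound by ETS factors such as ERG and FLI1, which drive many endothelial genes. The Kdr window lies at chr5:75978456-75978705, the Flt1 window at chr5:147726012-147726261 and the Tie1 window at chr4:118489850-118490099, all on the minus strand.
Kdr: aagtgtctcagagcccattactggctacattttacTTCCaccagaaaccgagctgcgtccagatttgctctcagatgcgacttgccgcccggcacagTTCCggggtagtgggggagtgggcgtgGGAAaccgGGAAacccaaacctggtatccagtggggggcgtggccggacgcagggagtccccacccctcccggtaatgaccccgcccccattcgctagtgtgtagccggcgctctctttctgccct
Flt1: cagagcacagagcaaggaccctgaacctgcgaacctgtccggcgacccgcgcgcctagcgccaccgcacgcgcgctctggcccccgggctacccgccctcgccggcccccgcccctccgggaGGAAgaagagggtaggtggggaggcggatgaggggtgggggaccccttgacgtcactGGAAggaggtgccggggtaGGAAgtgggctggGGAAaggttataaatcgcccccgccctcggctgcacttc
Tie1: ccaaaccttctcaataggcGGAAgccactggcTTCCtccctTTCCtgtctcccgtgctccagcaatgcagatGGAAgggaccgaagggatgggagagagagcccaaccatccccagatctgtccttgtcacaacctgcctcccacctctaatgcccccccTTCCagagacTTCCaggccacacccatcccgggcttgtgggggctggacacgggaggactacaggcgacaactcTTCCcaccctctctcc

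The GGAA core occurred 4 times in the Kdr window, 4 times in the Flt1 window and 7 times in the Tie1 window. In the windows at hand that are not shown it occurred 2 times for Tek and 4 times for Emcn. Over all 32851 windows of this length 93.4% held it, with a median of 3 matches. CACCC, the core bound by KLF factors, occurred 1 time for Kdr, 1 time for Flt1 and 2 times for Tie1. It occurred 1 time for Tek and had no match for Emcn, and 52.0% of all windows held it. The core of the antioxidant response element, TGACNNNGC, to which NRF2 binds, occurred 1 time in the Kdr window. It had no match in the Flt1, Tie1, Tek and Emcn windows, and 10.2% of all windows held it. Both strands were searched for each motif, and no match of the last 2 motifs overlapped a GGAA. A match is a run of letters and not a shown binding site.

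After injury Kdr was lower in both genotypes, whereas Cdh5 and Pecam1 were higher in both. In KD IRI against KD Normal, 5 of the 10 genes rose (Cdh5, Tie1, Pecam1, Vwf and Plvap), 1 fell (Kdr) and 4 did not pass. Of all genes tested 59.3% passed in that comparison, 27.5% higher and 31.8% lower. In WT IRI against WT Normal, 3 rose (Nos3, Pecam1 and Cdh5), 1 fell (Kdr) and 6 did not pass, where 45.8% of all genes passed, 20.6% higher and 25.2% lower. The shares of the 10 that passed in either direction were therefore close to those of all genes. The median change of the 10 was 0.40 in KD and 0.31 in WT, beside -0.080 over all genes in each genotype. These 2 comparisons share no arrays. The contrast with all genes depended on the processing in WT. With normexp background correction, an alternative described below, the WT median of the 10 was 0.25 beside 0.20 over all genes. In KD it was 0.28 beside -0.34.

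**Figure D1:**
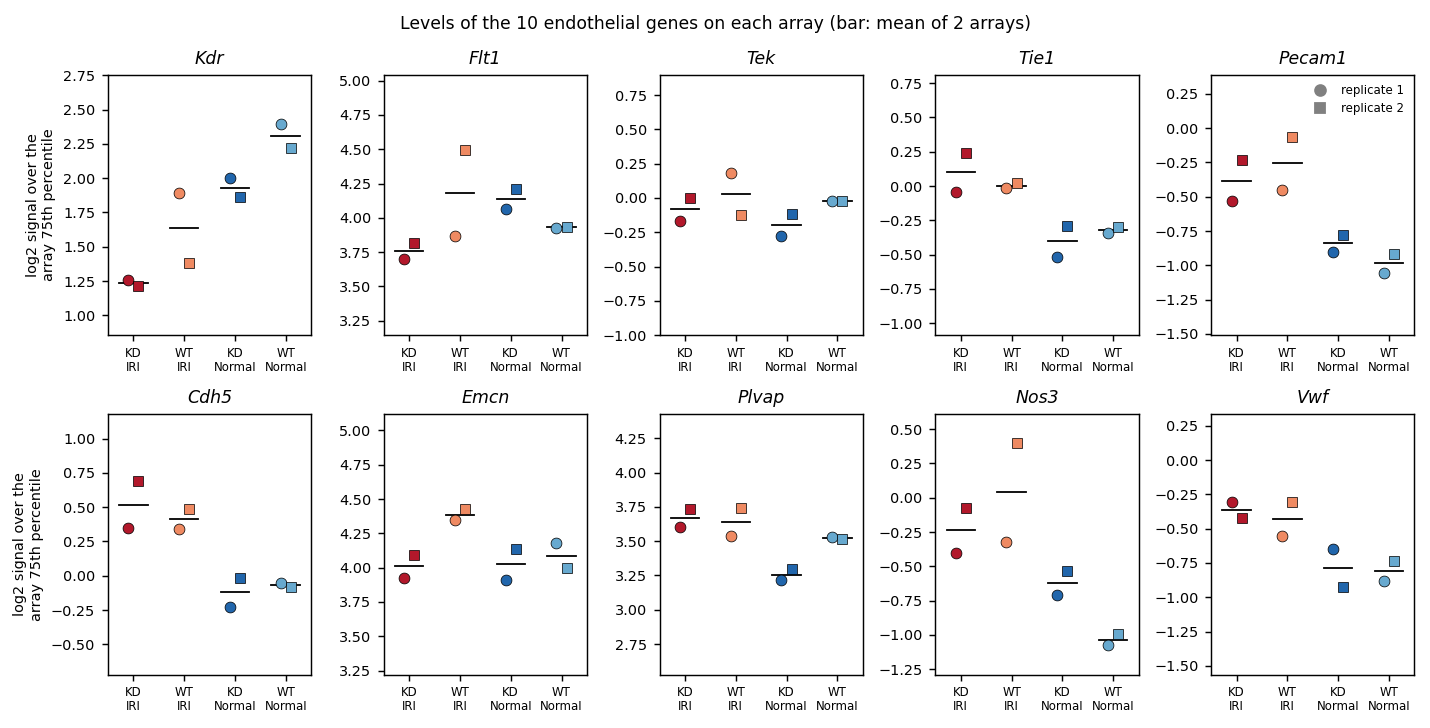
Levels of the 10 endothelial genes, with 0 at the 75th percentile of the array (log2 scale), 1 point per array and a bar at the mean of the 2 arrays of a group; circles are replicate 1 and squares replicate 2. Kdr was at 1.26 and 1.21 in KD IRI and at 2.40 and 2.22 in WT Normal, while Nos3 was lowest in WT Normal.

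Kdr encodes VEGFR2, the receptor through which VEGF-A drives endothelial growth and permeability. Its level was 1.26 and 1.21 in KD IRI, 1.89 and 1.38 in WT IRI, 2.00 and 1.86 in KD Normal and 2.40 and 2.22 in WT Normal. Both injured groups lay below their uninjured counterparts without overlap, and within each injury state both KD arrays lay below both WT arrays. Kdr fell by 0.70 ± 0.16 in KD IRI against KD Normal (adjusted p = 0.00889), a level 1.62-fold lower, and by 0.67 ± 0.16 in WT IRI against WT Normal (adjusted p = 0.0142), 1.59-fold lower. Within slides the injury difference was -0.74 and -0.65 in KD and -0.51 and -0.84 in WT.

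Flt1 encodes VEGFR1, which binds VEGF-A tightly and, as a soluble form, acts as a decoy. Its level was 3.70 and 3.82 in KD IRI, 3.87 and 4.49 in WT IRI, 4.07 and 4.21 in KD Normal and 3.93 and 3.94 in WT Normal. The injured KD arrays lay below all 6 others, and the 2 WT IRI arrays were the farthest apart of any group. Flt1 differed by -0.38 ± 0.19 in KD IRI against KD Normal (adjusted p = 0.114) and by 0.25 ± 0.19 in WT IRI against WT Normal (adjusted p = 0.314). A dimmer Flt1 probe gave -0.48 ± 0.16 in KD (adjusted p = 0.0402, over single probes) and 0.15 ± 0.16 in WT (adjusted p = 0.506).

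Tek encodes TIE2, the receptor of the angiopoietins, and Tie1 its partner receptor. Tek stood at -0.17 and -0.0023 in KD IRI, 0.18 and -0.12 in WT IRI, -0.28 and -0.11 in KD Normal and -0.021 and -0.022 in WT Normal, and injured and uninjured arrays overlapped in both genotypes. Its injury difference was 0.11 ± 0.13 in KD (adjusted p = 0.47) and 0.049 ± 0.13 in WT (adjusted p = 0.773). Tie1 stood at -0.041 and 0.24 in KD IRI, -0.016 and 0.021 in WT IRI, -0.51 and -0.29 in KD Normal and -0.34 and -0.30 in WT Normal. All 4 injured arrays thus lay above all 4 uninjured ones. Tie1 rose by 0.50 ± 0.12 in KD IRI (adjusted p = 0.0108), or 1.42-fold, and in WT the difference was 0.32 ± 0.12 (adjusted p = 0.0696). With the slide as a block the WT difference passed (adjusted p = 0.0356).

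Pecam1 encodes CD31, an adhesion molecule of endothelial junctions that platelets and leukocytes also carry, and Cdh5 encodes VE-cadherin, the main adhesion protein of those junctions. Pecam1 was at -0.53 and -0.23 in KD IRI, -0.45 and -0.065 in WT IRI, -0.90 and -0.78 in KD Normal and -1.05 and -0.92 in WT Normal. Every injured array was above every uninjured one. Pecam1 rose by 0.46 ± 0.16 in KD IRI (adjusted p = 0.0422), 1.37-fold, and by 0.73 ± 0.16 in WT IRI (adjusted p = 0.0096), 1.66-fold.

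Cdh5 was at 0.34 and 0.69 in KD IRI, 0.34 and 0.48 in WT IRI, -0.23 and -0.014 in KD Normal and -0.051 and -0.080 in WT Normal. Here too the injured and uninjured arrays were apart in both genotypes. Cdh5 rose by 0.64 ± 0.14 in KD IRI (adjusted p = 0.0061), 1.56-fold, and by 0.48 ± 0.14 in WT IRI (adjusted p = 0.0267), 1.39-fold. A dimmer Cdh5 probe gave 0.62 ± 0.17 in KD and 0.60 ± 0.17 in WT, with adjusted p of 0.0165 and 0.0252 over single probes.

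Emcn encodes endomucin, a sialomucin on capillary and venous endothelium, and Plvap the protein that forms the diaphragms of fenestrae and caveolae. Emcn was at 3.93 and 4.09 in KD IRI, 4.34 and 4.43 in WT IRI, 3.91 and 4.14 in KD Normal and 4.18 and 3.997 in WT Normal. Only the WT IRI arrays stood apart, above the other 6. The injury difference was -0.014 ± 0.11 in KD (adjusted p = 0.918) and 0.30 ± 0.11 in WT (adjusted p = 0.0621). Plvap was at 3.60 and 3.73 in KD IRI, 3.54 and 3.74 in WT IRI, 3.22 and 3.30 in KD Normal and 3.53 and 3.52 in WT Normal. It was lowest in KD Normal, and it rose by 0.41 ± 0.091 in KD IRI (adjusted p = 0.007), 1.33-fold, beside 0.12 ± 0.091 in WT IRI (adjusted p = 0.334).

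Nos3 encodes the endothelial nitric oxide synthase. Its level was -0.40 and -0.072 in KD IRI, -0.32 and 0.40 in WT IRI, -0.71 and -0.53 in KD Normal and -1.08 and -0.997 in WT Normal. All injured arrays lay above all uninjured ones, with the lowest values in WT Normal. Nos3 had the largest change of the 10 in WT IRI, 1.08 ± 0.23 (adjusted p = 0.00908) or 2.11-fold higher, and within slides this was 0.76 and 1.40. In KD IRI the difference was 0.39 ± 0.23 (adjusted p = 0.191).

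Vwf encodes von Willebrand factor, the clotting protein that endothelium and platelets store. Its level was -0.30 and -0.42 in KD IRI, -0.55 and -0.31 in WT IRI, -0.65 and -0.92 in KD Normal and -0.88 and -0.74 in WT Normal. The injured arrays of each genotype lay above the uninjured ones. Vwf rose by 0.42 ± 0.13 in KD IRI (adjusted p = 0.0309), 1.34-fold, while the difference of 0.38 ± 0.13 in WT IRI missed the threshold (adjusted p = 0.0565). A dimmer Vwf probe gave 0.52 ± 0.17 in KD and 0.40 ± 0.17 in WT, with adjusted p of 0.0306 and 0.0926 over single probes. Injured and uninjured arrays did not overlap for 8 of the 10 genes in KD and for 8 in WT, where 81.9% and 76.7% of all genes did not overlap.

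**Figure D2:**
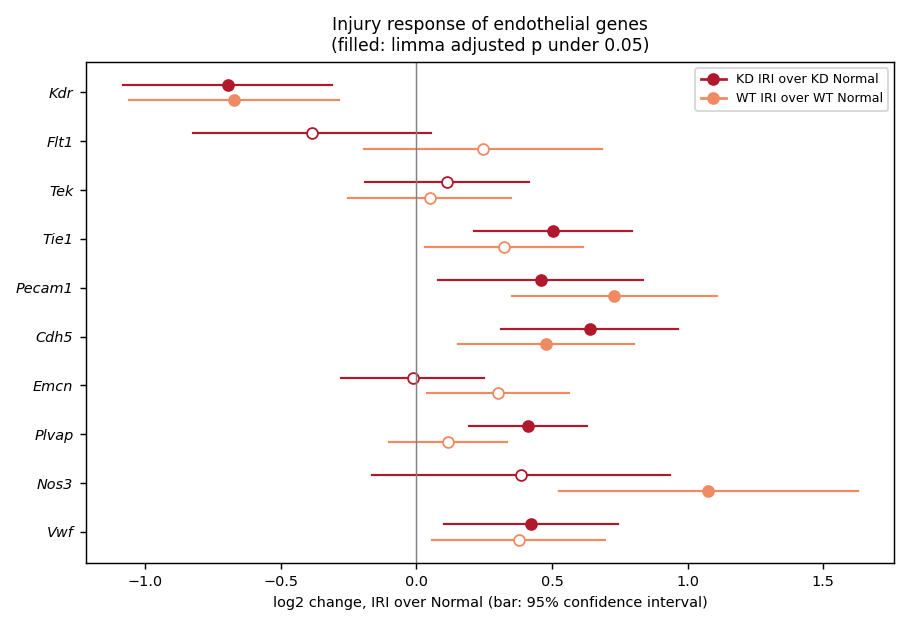
Injury responses of the 10 genes as log2 changes, with KD IRI over KD Normal above WT IRI over WT Normal for each gene; bars are 95% confidence intervals and filled points passed the test. Kdr lay left of 0 in both genotypes (-0.70 and -0.67), and Cdh5 and Pecam1 lay right of 0 in both.

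These calls depended on single arrays. Without replicate 1 of WT Normal none of the 10 passed in WT, where Nos3 had 1.04 (adjusted p = 0.0529), Pecam1 0.66 (0.0634), Kdr -0.58 (0.0879) and Cdh5 0.49 (0.0993); in that fit 28.7% of all genes passed. Cdh5 in WT also missed the threshold without replicate 2 of WT Normal (adjusted p = 0.112) and without replicate 2 of WT IRI (adjusted p = 0.111). In KD, Cdh5 and Kdr passed in all 8 fits that left out 1 array. Without replicate 2 of KD IRI they were the only 2 of the 10 that passed, and Pecam1 was then at 0.31 (adjusted p = 0.222). Tie1 (adjusted p = 0.0696), Vwf (0.0704) and Plvap (0.0516) missed the threshold there too. Pecam1 also missed it without either replicate of KD Normal or of WT Normal, Tie1 without replicate 1 of KD Normal (adjusted p = 0.057), and Vwf without replicate 2 of KD Normal (0.144) or replicate 1 of KD IRI (0.138). Some calls appeared instead. Without either replicate of WT IRI, Flt1 passed as lower in KD IRI against KD Normal (-0.38), and Nos3 as higher (0.39). In WT, Flt1 passed without replicate 1 of WT IRI (0.56). Vwf passed there without that array or either KD Normal array, and Emcn without either KD Normal array. Where the array left out is in neither group compared, the change stays the same and only the spread pooled over all groups moves.

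Pecam1, Kdr and Nos3 each had 10 spots of 1 probe on every array, which show the spot error within an array. They share 1 RNA sample, labelling and scaling, so they do not show the error between arrays. The SD over these spots was between 0.033 and 0.11 for Kdr, 0.050 and 0.090 for Pecam1 and 0.030 and 0.086 for Nos3. The 2 WT IRI arrays differed by more than this spot error, with Kdr at 1.89 and 1.38 and Nos3 at -0.32 and 0.40. For all 3 genes WT IRI had the widest gap between arrays of the 4 groups. Replicate 2 of WT IRI, which had the lower Kdr, had the higher Nos3 and Pecam1.

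**Figure D3:**
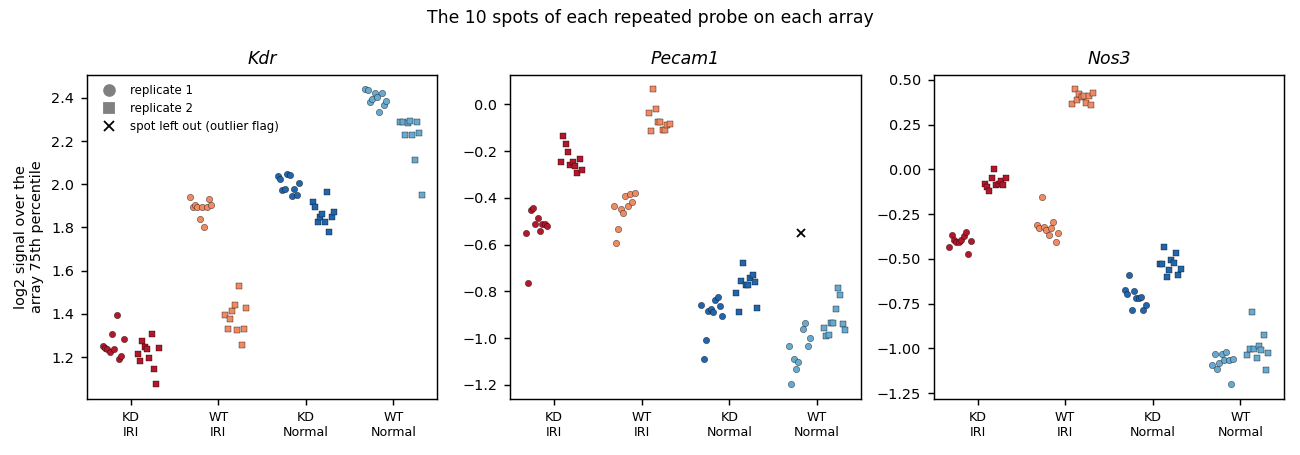
Levels of the 10 spots of the Kdr, Pecam1 and Nos3 probes on each array, on the log2 scale with 0 at the 75th percentile, with circles for replicate 1, squares for replicate 2 and a cross for a spot left out as an outlier. The spots of 1 array stay together, whereas the 2 WT IRI arrays lie apart in each panel.

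Keap1 knockdown left none of the 10 genes past the threshold, with injury or without. In KD IRI against WT IRI 7.11% of all genes passed, 3.69% higher and 3.42% lower. In KD Normal against WT Normal 15.2% passed, 6.39% higher and 8.79% lower. At an unadjusted p under 0.05, limma gave 2 of the 10 with injury (Emcn and Kdr), where 26.8% of all genes reached it, and 1 without (Plvap), where 32.9% did. With only 10 genes, these counts cannot tell the share of the 10 from that of all genes. A p above the threshold does not show equal levels, and the intervals were wide for some genes. Vwf differed by 0.067 (95% interval -0.25 to 0.39) in KD IRI against WT IRI and by 0.022 (-0.30 to 0.34) in KD Normal against WT Normal, and Nos3 by -0.28 (-0.83 to 0.27) and 0.42 (-0.14 to 0.97). The dimmer Vwf probe had the other sign in both, -0.075 with injury and -0.20 without, and did not pass either. Cdh5 was at 0.10 with injury and -0.056 without, whereas its dimmer probe was at 0.14 and 0.12, also not passing.

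The widest differences with injury were in the VEGF receptors and Emcn. With injury, the KD minus WT difference of Flt1 was -0.42 ± 0.19 (adjusted p = 0.20), that of Kdr -0.40 ± 0.16 (adjusted p = 0.173) and that of Emcn -0.38 ± 0.11 (adjusted p = 0.0865), and both KD IRI arrays lay below both WT IRI arrays for these 3 genes alone. Across all genes 57% were apart in this comparison. Without replicate 1 of WT IRI Flt1 passed (-0.74, adjusted p = 0.0172), and without replicate 2 of WT IRI Kdr did (-0.65, adjusted p = 0.033). The KD and WT arrays did not overlap for 6 of the 10 genes without injury, where 64.4% of all genes did not. Without injury, Nos3 differed by 0.42 ± 0.23 (adjusted p = 0.265), Kdr by -0.38 ± 0.16 (adjusted p = 0.16) and Plvap by -0.27 ± 0.091 (adjusted p = 0.0933). Without either WT IRI array the Kdr difference passed at the same -0.38. Those arrays are in neither group compared here, so only the spread pooled over all groups moved.

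**Figure D4:**
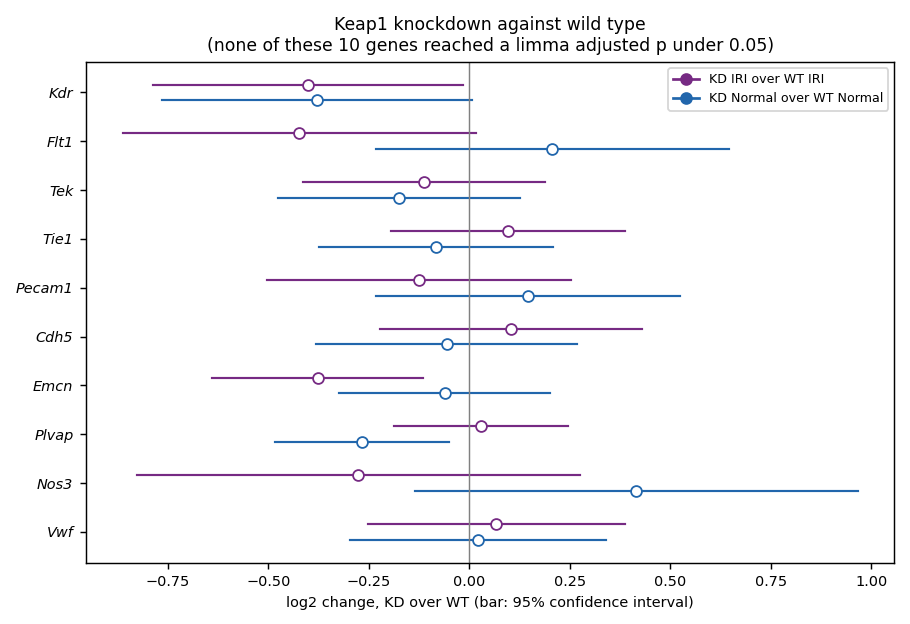
Differences between Keap1 knockdown and wild type for the 10 genes as log2 changes, with KD IRI over WT IRI above KD Normal over WT Normal for each gene; bars are 95% confidence intervals and open points did not pass. Kdr lay left of 0 in both comparisons (-0.40 and -0.38). Flt1 and Nos3 lay on opposite sides of 0 in the 2 comparisons, as did Pecam1, Cdh5, Tie1 and Plvap.

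The difference between the injury responses of the genotypes (KD response minus WT response, an interaction term) passed for none of the 10. It passed for 6.6% of all genes, 3.79% higher and 2.81% lower, and limma gave 1 of the 10, Flt1, at an unadjusted p under 0.05, which 26.1% of all genes reached. It was -0.69 ± 0.33 for Nos3 (adjusted p = 0.238), -0.63 ± 0.26 for Flt1 (adjusted p = 0.187) and 0.30 ± 0.13 for Plvap (adjusted p = 0.205). For Kdr it was -0.023 (95% interval -0.57 to 0.52). Without replicate 1 of WT IRI the interaction passed for Flt1 (-0.94, adjusted p = 0.0154) and Nos3 (-1.05, adjusted p = 0.0392). So the genes that passed after injury in one genotype and not in the other, such as Nos3, Plvap, Tie1 and Vwf, were not shown to differ between genotypes.

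Many other genes of endothelial surface and junctions were higher after injury. Of 19 such genes 15 rose, 1 fell and 3 did not pass in KD IRI against KD Normal (median 0.69). In WT IRI against WT Normal 9 rose, none fell and 10 did not pass (median 0.54). These counts, and those of the lists below, stand beside the shares of all genes. Unlike those of the 10 genes, the calls of list genes were not followed here with single arrays left out. This covers their interactions and genotype differences, where the share of all genes that passed moved widely in such fits, as given below. In KD 59.3% of all genes passed, 27.5% higher and 31.8% lower. In WT 45.8% passed, 20.6% higher and 25.2% lower. Procr, the protein C receptor of endothelium, rose by 2.89 in KD (adjusted p = 2.68e-05) and 2.40 in WT (adjusted p = 0.000123). Ecscr, an endothelial surface protein, rose by 2.02 and 1.89, and the claudin gene Cldn5 by 1.04 and 0.57. Ptprb, the phosphatase that restrains TIE2, fell in KD (-0.30, adjusted p = 0.0399). Thbd, which encodes thrombomodulin, rose in WT (1.69, adjusted p = 0.000625) and was at 0.045 in KD (adjusted p = 0.846), with an interaction of -1.64 ± 0.26 (adjusted p = 0.0244).

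Genes of the activated endothelium were higher after injury in both genotypes. All 8 measured rose in KD (median 1.52) and 7 of 8 rose in WT (median 1.09), Selp, the P-selectin gene, not passing there (0.67, adjusted p = 0.0511) and not being well above background in WT Normal. Vcam1, an adhesion molecule for leukocytes, rose by 2.78 in KD and 1.83 in WT, with an interaction of 0.95 ± 0.19 (adjusted p = 0.0396). Icam1, another such molecule, rose by 0.95 in KD and 1.04 in WT. Sele and Ackr1 were not well above background on both arrays of any group and were not tested. Tubule and other cells express several of these genes too.

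Ligands, co-receptors and target genes of the receptors above moved in both directions. Of these 15 genes of VEGF and angiopoietin signalling, 5 rose, 4 fell and 6 did not pass in KD (median 0.021). In WT 2 rose, 7 fell and 6 did not pass (median -0.40). Of all genes 27.5% rose and 31.8% fell in KD, and 20.6% rose and 25.2% fell in WT. Vegfa, the main VEGF-receptor ligand, fell by 1.43 in KD IRI (adjusted p = 5.37e-05) and by 1.01 in WT IRI (adjusted p = 0.000446). Dll4, a Notch ligand of sprouting endothelium, fell by 0.77 and 0.74, and Angpt2, which opposes angiopoietin 1, by 0.63 and 0.58. Angpt1, the activating ligand of TIE2, fell in WT (-0.90, adjusted p = 0.0439) and was at -0.72 in KD (adjusted p = 0.0712). Vegfc, the ligand of VEGFR3, rose in KD (0.83, adjusted p = 0.00527) and was at 0.31 in WT (adjusted p = 0.186). The largest rises of this list in KD were those of Aplnr, the apelin receptor (2.03, adjusted p = 0.0159), and its ligand Apln (1.18, adjusted p = 0.018), which were at -0.22 (adjusted p = 0.764) and 0.44 (adjusted p = 0.307) in WT. Nrp2, a co-receptor, rose by 0.69 in KD and 0.53 in WT.

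Of 16 endothelial transcription factors 8 rose, 2 fell and 6 did not pass in KD (median 0.43), and 6 rose, 3 fell and 7 did not pass in WT (median 0.30). Klf2, the flow-responsive factor that raises Nos3 in cultured endothelium, fell by 1.38 in KD IRI (adjusted p = 0.00309) and by 2.01 in WT IRI (adjusted p = 0.00104). The ETS factor Fli1 rose by 0.95 and 0.50, and Erg, another, rose in KD (0.71, adjusted p = 0.0235) and was at 0.34 in WT (adjusted p = 0.229). Erg was dim, and not well above background on replicate 1 of KD Normal or replicate 2 of WT Normal. Ets1 rose by 1.64 in KD and was at 0.27 in WT (adjusted p = 0.183), with an interaction of 1.36 ± 0.21 (adjusted p = 0.0235).

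In the nitric oxide and endothelin list, 8 of 14 genes rose, 2 fell and 4 did not pass in KD (median 0.83), and 7 rose, 2 fell and 5 did not pass in WT (median 0.73). Gch1, which makes the cofactor of nitric oxide synthases, rose by 2.33 in KD and 2.80 in WT, and Edn1, the vasoconstrictor endothelin 1, by 0.97 and 1.71. Ddah1, which clears an inhibitor of the synthases, fell by 1.44 and 0.88. Nos1 and Nos2 were not well above background on both arrays of any group.

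**Figure D5:**
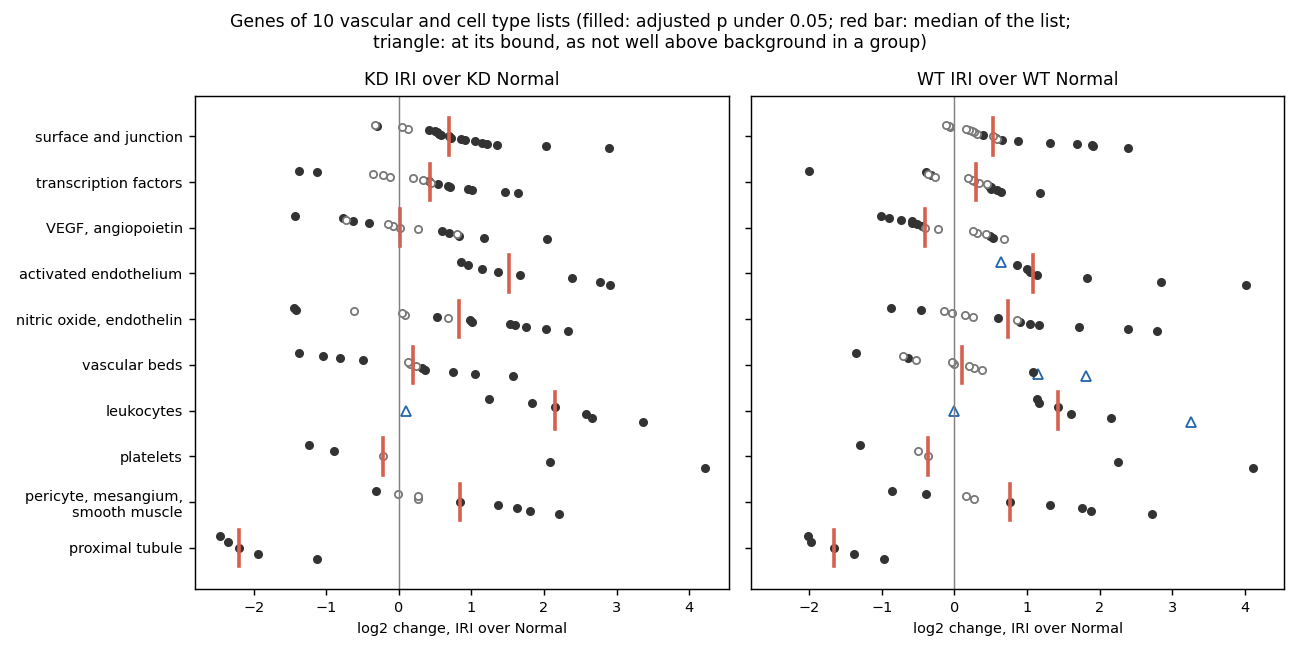
Injury responses of 10 gene lists as log2 changes, KD IRI over KD Normal in the left panel and WT IRI over WT Normal in the right one, with 1 point per gene, filled where the gene passed, a triangle at its bound where the gene was not well above background in a group, and a red bar at the list's median. The medians of surface and junction genes (0.69 and 0.54) lay right of 0 and those of the proximal tubule (-2.20 and -1.66) left of it.

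Genes that mark vascular beds split. Of 12 measured, 5 rose, 4 fell and 3 did not pass in KD (median 0.19). In WT 2 rose, 2 fell and 8 did not pass (median 0.098). For 2 of the 12, neither WT Normal array was well above background. Of all genes 59.3% passed in KD and 45.8% in WT. Gja5, the arterial connexin 40, rose by 1.05 in KD and 1.09 in WT. Ehd3, a gene of glomerular endothelium, fell by 0.50 in KD (adjusted p = 0.0132) and was at -0.037 in WT (adjusted p = 0.831), and it was lower in KD IRI than in WT IRI (-0.57, adjusted p = 0.046). Igfbp5, which capillary and other cells express, fell by 1.05 and 1.36.

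Between genotypes fewer genes of these lists passed than after injury. In KD IRI against WT IRI, where 7.11% of all genes passed, it was 0 of 19 surface and junction genes, 1 of 15 VEGF and angiopoietin genes (lower), 2 of 8 activated endothelium genes (higher), 1 of 16 transcription factors (higher), 0 of 14 nitric oxide and endothelin genes and 1 of 12 vascular bed genes (lower). In KD Normal against WT Normal, where 15.2% of all genes passed, the VEGF and angiopoietin list had 3 lower, the activated endothelium list 2 higher, the transcription factors 2 higher and 1 lower, and the vascular bed list 1 lower. The nitric oxide and endothelin list had 2 higher (Arg2, an arginase gene, 1.71, and Ednrb, an endothelin receptor gene, 1.199) and 3 lower. Among surface and junction genes 2 were higher (Thbd, 1.36, and Cd93, a surface lectin gene, 0.57) and 1 was lower (Clec14a, -0.74). Esm1, a VEGF-induced proteoglycan gene of endothelium, was lower in KD in both, with a difference of -0.85 ± 0.18 with injury (adjusted p = 0.0375) and -1.17 ± 0.18 without (adjusted p = 0.0104). Plaur, the urokinase receptor, was higher in both, by 1.32 (adjusted p = 0.0134) and 1.78 (adjusted p = 0.00403). Ddah2, a relative of Ddah1, was lower in KD Normal than in WT Normal (-1.003, adjusted p = 0.00726).

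Whole kidney RNA was measured, so fewer cells of a type and less RNA per cell cannot be told apart. Markers of other cells moved with injury. All 7 leukocyte markers rose in each genotype (Spi1 was not well above background in KD Normal or WT Normal, nor Itgam in WT Normal). With those genes held at the smallest change their background allows, the medians were 2.15 in KD and 1.42 in WT. Their summed signal, as a log2 value on the same scale, was 3.59 to 3.94 in KD IRI, 3.38 to 3.43 in WT IRI, 1.40 to 1.41 in KD Normal and 1.90 to 2.03 in WT Normal. A summed signal is set mostly by the brightest probes, here those of Cd52 and Coro1a. Both had lower means in KD Normal than in WT Normal (Cd52 -0.24 and 0.74, Coro1a -0.25 and 0.41). Laptm5 was lower there too (-2.51 and -2.26), whereas Ptprc (-0.98 and -1.10) and Itgb2 (-2.10 and -2.34) were not. Of 5 platelet markers 2 rose, 2 fell and 1 did not pass in KD, and 2 rose, 1 fell and 2 did not pass in WT. Their summed signal was 2.02 to 2.51 in KD IRI, 2.36 to 2.60 in WT IRI, -0.95 to -0.76 in KD Normal and -0.69 to -0.46 in WT Normal. On injured arrays this sum mostly followed Pf4, at 1.88 and 2.36 in KD IRI and 2.22 and 2.33 in WT IRI. Pf4 rose by 4.21 in KD and 4.12 in WT, whereas Itga2b, which encodes a subunit of the platelet fibrinogen receptor, fell by 1.24 and 1.31. Gp9 and Gp5 were not well above background on both arrays of any group. All 5 proximal tubule markers fell, with a summed signal of 6.76 to 7.12 in KD IRI, 6.86 to 7.64 in WT IRI, 9.01 to 9.10 in KD Normal and 8.90 to 8.93 in WT Normal. The part of these cells in the changes of Pecam1, Vwf and the other endothelial genes was not tested.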

How the data were processed

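Per the labels, amplification and Cy3 labelling started with 300 ng of RNA. Per the file headers, Agilent Feature Extraction (version 10.7.3.1) made the deposited spot intensity by subtracting background and removing spatial trends. The deposited values of the whole series are log2 values whose scale and centring are not stated; their columns followed the scaled values below, centred on each probe's median (r from 0.9999478 to 0.9999745), in the same direction. The column medians were -0.136 and -0.117 in KD IRI, -0.075 and -0.082 in WT IRI, 0.095 and 0.056 in KD Normal and 0.160 and 0.125 in WT Normal.

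Processed intensity was put on the log2 scale and the 75th percentile of the array subtracted, taken over spots that were not controls. Outlier spots were left out and spots of a probe averaged. A probe was kept if some group had it well above background on both arrays, except 216 with no usable spot on an array, leaving 27408 of 41174. RefSeq accessions (GRCm38.p6) named 26690 probes; others kept the file's identifier. The brightest probe per gene gave 20580 genes. limma 3.58.1 (R 4.3.3; tables read with version 1.17.8 of data.table) fitted a mean per group, with an intensity trend, 4 residual and 2.94 prior degrees of freedom, and Benjamini-Hochberg adjustment at 0.05 in 5 contrasts. The script was tested on simulated data. The members and lists were chosen with earlier results of these data known. Named are the 10 genes and, from each other list, the largest changes that passed and the largest that did not, plus the genes most like the 10; a few further list members were chosen after their values were seen, and 1 list member is not reported here by name. Alternatives were quantile normalization, normexp (offset 50, on the median spot signal), the deposited table, other filters, no trend, only the arrays compared, a slide block, other probe rules and leaving out each array. The slide equals the replicate number; across genes, differences between replicates 1 and 2 correlated between groups with r from 0.022 to 0.26. Promoter windows came from RefSeq. Figures were drawn with matplotlib 3.10.9.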

Additional observations from a re-analysis of the deposited data

How the results depend on the processing

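The number of the 10 genes that passed was 6 in KD IRI against KD Normal, 4 in WT IRI against WT Normal and 0 in the other 3 comparisons. Leaving out each array in turn gave 2 to 8 of the 10 in KD IRI against KD Normal, 0 to 6 in WT IRI against WT Normal, 0 to 1 in KD IRI against WT IRI, 0 to 1 in KD Normal against WT Normal and 0 to 2 for the interaction. Under the other settings the counts stayed within 1.5 times of those reported. With the replicate block, which is the slide, Tie1 in WT IRI (adjusted p = 0.0356) was the one call of the 10 genes that changed, and the counts were 6 in KD and 5 in WT. Of 855 values of single genes under the alternatives, 810 kept their side of the threshold and direction of call, 23 lost and 22 gained a call, and none that was called changed sign. Quantile normalization added Emcn (0.58, adjusted p = 0.0091) and Plvap (0.33, adjusted p = 0.0356) in WT and lost Pecam1 in KD (0.41, adjusted p = 0.0637). Normexp lost Cdh5 in WT (0.42, adjusted p = 0.0575) and Pecam1 (0.32, adjusted p = 0.219) and Vwf (0.34, adjusted p = 0.196) in KD. Pecam1 in KD was also lost without the filter (adjusted p = 0.0563) and without the trend (adjusted p = 0.0564); the cause was not tested. With only the arrays compared, Tie1 in WT (adjusted p = 0.0398) and Flt1 in KD (adjusted p = 0.0198) passed, and no interaction could be fitted.

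The share of all genes that passed also moved. Under normexp it was 33.9% in KD IRI against KD Normal (59.3% as reported), 25.6% in WT IRI against WT Normal (45.8%) and 6.38% in KD Normal against WT Normal (15.2%), and the median of all genes shifted to -0.34, 0.20 and 0.15, and to -0.22 in KD IRI against WT IRI and -0.31 for the interaction. Without the filter the median was -0.31 in KD IRI against KD Normal and -0.29 in WT IRI against WT Normal, and of the genes that passed 34.5% and 28.9% were higher, beside 46.4% and 45% as reported. With only the arrays compared it was 0.321% in KD IRI against WT IRI (7.11%). Leaving out single arrays gave 0.117% to 7.48% there, 0.578% to 18.7% in KD Normal against WT Normal and 0.0292% to 8.23% for the interaction (6.6% as reported), the lowest without replicate 2 of KD IRI, replicate 2 of WT Normal and replicate 1 of WT Normal. With 2 arrays per group, the number of arrays limits the precision.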

Other observations

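Genes of the cells around vessels moved with injury as well. Of 9 markers of pericytes, mesangium and smooth muscle, 5 rose, 1 fell and 3 did not pass in KD IRI against KD Normal (median 0.84), and 5 rose, 2 fell and 2 did not pass in WT IRI against WT Normal (median 0.76). Pdgfrb, the PDGF receptor of pericytes, rose by 1.81 in KD and 1.89 in WT, and Acta2, smooth muscle actin, by 1.62 and 2.73. Gata3 fell in KD (-0.32, adjusted p = 0.0358). The 2 that fell in WT were Gata3 (mean 0.70 in WT IRI and 1.09 in WT Normal) and Tagln, another smooth muscle gene (5.23 and 6.09). The summed signal of the list was 5.86 to 6.14 in KD IRI and 5.06 to 5.43 in KD Normal. In WT it overlapped, at 6.21 to 6.33 in WT IRI and 6.12 to 6.53 in WT Normal. The interaction of Acta2 passed (-1.10 ± 0.21, adjusted p = 0.0347), and Acta2 was higher in KD Normal than in WT Normal (0.70, adjusted p = 0.0266). As for the other list genes, these calls were not followed with single arrays left out. Tagln was lower in KD Normal than in WT Normal (-1.54, adjusted p = 0.00948). Among 5 podocyte markers, 0 rose, 2 fell and 3 did not pass in KD (median -0.55), and 0 rose, 1 fell and 4 did not pass in WT (median 0.10). Synpo, an actin-binding protein of podocyte foot processes, fell in KD (-2.70) and in WT (-4.58), while Podxl, a surface sialoprotein, was at -0.053 (adjusted p = 0.684) and 0.22 (adjusted p = 0.132).

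Among 14094 other genes with a symbol, those whose levels over the 8 arrays were most like the mean of the 10 endothelial genes were Mbp (Pearson's r = 0.975), Ssh3 (0.973), Cilk1 (0.972), Cerk (0.967) and Rab4b (0.964). These are descriptions over 8 arrays that share 2 slides and 4 groups.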
